A study of Homo sapiens with 51 samples.

Results

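Ribosomes are built from ribosomal RNA and a fixed set of ribosomal proteins. The genes of those proteins are described here in 2 human mammary cell lines, after knockdown or inhibition of the histone methyltransferases SUV39H1 and SUV39H2. Genes were taken by symbol (RPL or RPS with a number and at most a short suffix, plus RPLP0, RPLP1, RPLP2 and RPSA, without the Y-linked RPS4Y genes), which gave 83 of the 24033 genes in the table. Of these, 43 encode proteins of the large subunit, 3 encode its stalk and 30 encode proteins of the small subunit, and these 76 are called the core genes. The other members were 6 paralogs (RPL3L, RPL7L1, RPL22L1, RPL26L1, RPL39L and RPS27L), which encode close relatives of core proteins, and RPL12L3, a further locus with 3 to 26 reads per library that was set apart after its reads were seen. FAU, which encodes a ribosomal protein as a fusion with a ubiquitin-like sequence, falls outside the symbol rule and was counted with other genes below.

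HMLE, a human mammary epithelial line made immortal in culture, is labelled wild type, and HMLE-TWIST1 overexpresses TWIST1, a transcription factor that drives epithelial to mesenchymal transition. Total RNA was measured in 51 libraries, 3 for each of 17 groups. In both lines, DsiRNA (small interfering duplexes) against SUV39H1 and SUV39H2 ("knockdown") or a scrambled duplex ("scramble") was given for 48 h, and cells were taken then (D2) or after a further 48 h in fresh medium (D4). Both lines also had a DMSO group at D2 (48 h of DMSO) and one at D4 (15 h of DMSO, then 48 h without). HMLE-TWIST1 was also exposed to chaetocin, a compound from fungi that inhibits these enzymes, at 100, 150, 200 or 500 nM for 48 h, or at 80 nM for 15 h followed by 48 h without it (washout). The labels do not say that replicates were separate cultures, so p-values measure only the spread between these libraries, which may be technical, and neither the promoter that drives TWIST1 nor the number of clones is given in the sources used here.

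Levels are CPM, counts of reads relative to scaled library size, unless a value is called RPKM, which divides further by gene length. A member is said to rise or fall where limma's test gave a Benjamini-Hochberg adjusted p below 0.05 over all genes tested in that comparison, and every fold change is a log2 difference of group means with its standard error (SE). Library depth, summed over the genes in the table, ranged from 7897060 to 15662385 reads, of which the most abundant gene took 2.41 to 11.6%. The labels matched the markers: 6 epithelial genes summed to between 5200 and 11988 CPM in HMLE libraries and to between 2.04 and 9.54 CPM in HMLE-TWIST1 libraries, and 6 mesenchymal genes summed to between 822 and 3298 CPM in HMLE and between 5727 and 30675 CPM in HMLE-TWIST1. Leukocyte and endothelial markers summed to at most 18.04 and 13.2 CPM in any library.

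Ribosomal protein mRNAs are among the most abundant in growing cells, and most belong to the class of TOP mRNAs, which begin with a cytosine followed by an unbroken run of pyrimidines. Through that run their translation and stability respond to the growth pathway of the kinase mTORC1 and to the binding protein LARP1. Elongation factors such as EEF1A1 and EEF2 share this kind of start, while the factors that assemble ribosomes in the nucleolus mostly do not and are known as targets of MYC.

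The starts of transcription of some members are shown to illustrate this feature, which was more frequent among core genes than among all genes but was not present in every core gene nor absent from every paralog. Each line holds 15 bases before and 15 from the annotated start, in the direction of the gene, from RefSeq promoters on GRCh38.p14, and capitals mark a run of at least 5 pyrimidines that begins with C at the start.
RPS6 (chr9:19380222-19380251, minus strand): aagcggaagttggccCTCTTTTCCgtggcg
RPLP0 (chr12:120201097-120201126, minus strand): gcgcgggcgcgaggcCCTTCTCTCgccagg
RPLP1 (chr15:69452803-69452832, plus strand): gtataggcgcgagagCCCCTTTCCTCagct
RPSA (chr3:39406705-39406734, plus strand): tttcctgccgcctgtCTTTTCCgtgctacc
RPL3 (chr22:39319609-39319638, minus strand): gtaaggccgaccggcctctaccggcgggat
RPL22 (chr1:6199581-6199610, minus strand): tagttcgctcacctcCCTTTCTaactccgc
RPL22L1 (chr3:170870181-170870210, minus strand): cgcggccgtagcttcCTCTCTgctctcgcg
RPL26 (chr17:8383179-8383208, minus strand): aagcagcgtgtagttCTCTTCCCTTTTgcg
RPL26L1 (chr5:172958714-172958743, plus strand): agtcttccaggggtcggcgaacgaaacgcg
RPS27 (chr1:153990747-153990776, plus strand): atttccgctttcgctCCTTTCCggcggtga
RPS27L (chr15:63157463-63157492, minus strand): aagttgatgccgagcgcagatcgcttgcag
RPL7L1 (chr6:42879601-42879630, plus strand): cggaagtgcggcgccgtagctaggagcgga

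RefSeq promoters of 66 of the 83 members were matched by symbol. A run of at least 5 pyrimidines from a C at a start was present for 46 of 62 matched core genes (74.2%), against 1404 of 27305 genes in the promoter table (5.14%). The other 16 matched core genes, RPL3 among them, had no such run. Among the 4 matched paralogs it was present in RPL22L1 and absent from RPL7L1, RPL26L1 and RPS27L. In the window from 250 bases before to 50 bases after a start, CCGGAAG on either strand was found for 22 of the 62 core genes (35.5%) and 12.2% of all genes, and CACGTG for 4 core genes (6.45%) and 8.77% of all genes. These are matches of letters in annotated windows, and the starts used in these cells were not measured. Among the members without a match were RPL12L3, RPL23, RPL23A, RPL30, RPL37, RPL39L, RPL3L, RPL5, RPL7, RPL8, RPS15A, RPS2 and RPS20.

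The 83 genes together held 0.868 to 2.71% of the reads of a library. The lowest group was HMLE knockdown D4, with 0.897% ± 0.0391 (SD, n = 3), and the highest was HMLE-TWIST1 scramble D4, with 2.62% ± 0.10 (SD, n = 3). HMLE-TWIST1 knockdown D4 stood at 1.22% ± 0.0876 (SD, n = 3) and HMLE scramble D4 at 1.27% ± 0.0155 (SD, n = 3). The 9 libraries of HMLE scramble D4 and both knockdown D4 groups lay below all others, the next of which held 1.65%. HMLE-TWIST1 scramble D4, at 2.51 to 2.71%, overlapped the 100 nM group, which ran from 1.89 to 2.64%.

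**Figure D1:**
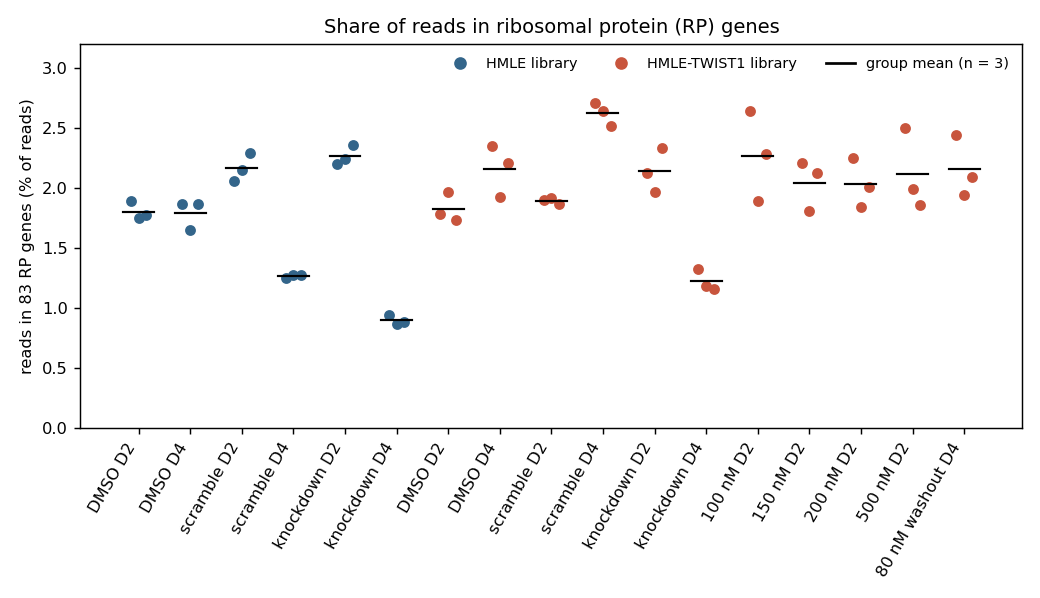
Percent of each library's reads that fell in the 83 ribosomal protein genes (points, 3 libraries a group) with the group mean (line), HMLE in blue and HMLE-TWIST1 in red. The 6 knockdown D4 libraries and the 3 HMLE scramble D4 libraries lie between 0.868 and 1.32%, below every other library.

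Between core genes the level per length spanned a wide range that was kept across groups. The lengths were recovered from the deposited values, from 767 bases for RPS12 to 8153 for RPL37, and were the same in every group. RPS21 and RPL35, at 1023 and 1535 bases, are among the shorter. The order of genes and its stability thus rest partly on these lengths. In HMLE DMSO D2, RPS6, a small-subunit protein and the substrate of the S6 kinases, led with 492 ± 30.9 RPKM (SD, n = 3), followed by RPS21 with 486 ± 40.7 and RPL35 with 430 ± 63.3. Their ranges over replicates overlapped, so these 3 were not separated in order. The lowest were RPL36A with 2.65 ± 0.497, RPS10 with 1.81 ± 0.219 and RPL17 with 1.51 ± 0.225 RPKM, of which RPS10 and RPL17 overlapped. Between any 2 of the 17 groups, the order of the 76 core genes had a Spearman correlation of at least 0.958, a description over genes that share libraries. Near-identical copies or overlapping loci can take reads, so counts are uncertain. Rows named as their pseudogenes existed for 61 core genes, 247 in all, and held 25.5% of the summed CPM of core genes and pseudogenes. For RPL36A, RPS10 and RPL17 such rows averaged 2.49, 4.51 and 1.90 CPM, beside 11.6, 2.91 and 3.21 CPM in the genes' own rows. Why these genes ranked low was not tested.

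The targets of the duplexes were examined first. At D4, SUV39H1 was at 1.3, 1.4 and 2.8 CPM in HMLE knockdown libraries and 3.7, 4.3 and 2.3 CPM in HMLE scramble libraries (log2 fold change -0.88, SE 0.26, limma adjusted p = 0.016), so these groups overlapped. In HMLE-TWIST1 it fell by 1.01 on the log2 scale (SE 0.26, adjusted p = 0.00441), and SUV39H2 fell by 0.49 in HMLE (adjusted p = 0.00253) and by 0.79 in HMLE-TWIST1 (adjusted p = 1.4e-05).

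At D4, after 48 h without the duplexes, core ribosomal protein genes were lower in the knockdown than in the scramble cells of both lines. In HMLE-TWIST1, 70 of 82 members tested fell and 0 rose, where 18% of all genes tested fell and 19.9% rose, and the median member changed by -0.88 on the log2 scale against 0.00 for all genes. In HMLE, 45 of 82 fell and 1 rose, where 13.6% of all genes fell and 12.5% rose, with a median of -0.28. In these bulk libraries, fewer cells of a type and less RNA per cell cannot be told apart. Marker genes moved beside these counts. In HMLE-TWIST1 the 6 mesenchymal markers summed to between 19019 and 20699 CPM in scramble D4 and to between 9438 and 9636 CPM in knockdown D4 libraries, of which FN1 held the most, and the 6 epithelial markers to between 2.04 and 2.38 and between 6.27 and 7.20 CPM. In HMLE the mesenchymal sums overlapped (2487 to 2967 and 2435 to 3298 CPM), and the epithelial sums were 6344 to 7358 and 7983 to 8933 CPM. Leukocyte markers, of which 3 of 5 were in the table, summed to between 0.378 and 0.595 CPM in scramble and between 4.67 and 5.86 CPM in knockdown libraries of HMLE-TWIST1, nearly all from CD74, and to between 0.759 and 1.48 and between 2.39 and 3.00 CPM in HMLE. PTPRC, the defining leukocyte marker, and CDH5 are not listed for these libraries. Endothelial markers, 3 of 4 in the table, summed to 8.78 to 9.30 CPM in scramble and 5.64 to 7.51 CPM in knockdown libraries of HMLE, and to at most 0.672 CPM in those of HMLE-TWIST1. The part of these markers' cells or states in the ribosomal protein result was not tested.

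The 45 members that fell in HMLE all fell in HMLE-TWIST1 too, 100% of the first list and 64.3% of the second. Since 85.4% of the 82 members fell in HMLE-TWIST1, most of any list of 45 members would be shared. The same overlap over all genes was not counted. The falls ran through all structural groups: in HMLE-TWIST1 they took in 40 of 43 large-subunit genes, 26 of 30 small-subunit genes and 3 of 3 stalk genes, and in HMLE 26, 17 and 2.

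RPL5, which carries the ribosome's small structural RNA together with RPL11 and binds MDM2, fell most in HMLE-TWIST1. RPL5 was at 1287, 1251 and 1281 CPM in scramble D4 and at 393, 357 and 338 CPM in knockdown D4 libraries of that line. The groups stood far apart, with a log2 fold change of -1.81 (SE 0.07, limma adjusted p = 3.42e-13). In HMLE, RPL5 was at 681, 615 and 687 CPM in scramble and 366, 322 and 385 CPM in knockdown libraries, again without overlap (log2 fold change -0.89, SE 0.07, adjusted p = 1.94e-08). RPL11 fell less, by 0.72 in HMLE-TWIST1 (adjusted p = 2.33e-06) and by 0.29 in HMLE (adjusted p = 0.0144).

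RPLP0 anchors the stalk that recruits elongation factors, and it fell most of all members in HMLE. RPLP0 was at 370, 331 and 373 CPM in HMLE scramble D4 and at 175, 145 and 180 CPM in HMLE knockdown D4 libraries (log2 fold change -1.11, SE 0.07, limma adjusted p = 3.82e-09). In HMLE-TWIST1 it was at 584, 553 and 595 CPM in scramble and 173, 183 and 166 CPM in knockdown libraries (log2 fold change -1.73, SE 0.07, adjusted p = 3.17e-12). The knockdown libraries of the 2 lines thus reached overlapping levels from scramble levels that did not overlap. Of its stalk partners in HMLE, RPLP2 fell by 0.60 (adjusted p = 0.00027), and RPLP1 did not pass (log2 fold change -0.12, SE 0.21, adjusted p = 0.738), a difference between the 2 genes that was not tested. In HMLE-TWIST1 RPLP1 fell by 1.21 (adjusted p = 0.00171) and RPLP2 by 0.90 (adjusted p = 2.28e-06).

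RPS6 was at 1082, 1026 and 1093 CPM in HMLE scramble D4 and at 668, 579 and 613 CPM in HMLE knockdown D4 libraries (log2 fold change -0.78, SE 0.06, limma adjusted p = 1.63e-08). In HMLE-TWIST1 RPS6 was at 2158, 2042 and 1974 CPM in scramble and 763, 684 and 680 CPM in knockdown libraries (log2 fold change -1.54, SE 0.06, adjusted p = 4.94e-13). Neither pair of groups overlapped. RPL3 and RPL4, large-subunit proteins with long extensions into the ribosome's core, fell by 1.70 and 1.72 in HMLE-TWIST1 and by 1.03 and 0.96 in HMLE. RPSA, the small-subunit protein known also as a laminin-binding protein, fell by 0.77 in HMLE-TWIST1 and by 0.33 in HMLE (adjusted p = 4.8e-07 and 0.00461).

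**Figure D2:**
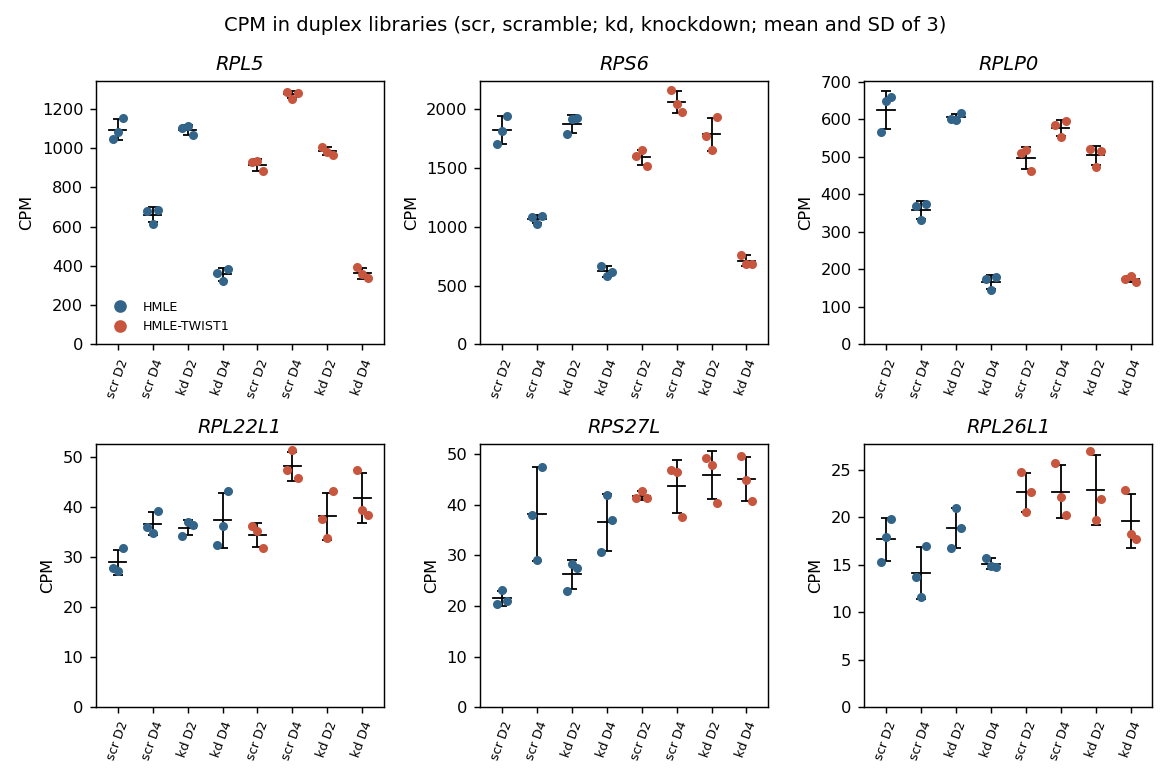
CPM of 3 core genes (top) and 3 paralogs (bottom) in the 24 duplex libraries, with the mean and SD of each group of 3, HMLE in blue and HMLE-TWIST1 in red. RPL5, RPS6 and RPLP0 are lowest in the knockdown D4 groups of both lines, while for RPL22L1, RPS27L and RPL26L1 the knockdown D4 libraries overlap those of scramble D4.

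The 7 core genes that did not pass in HMLE-TWIST1 at D4 were RPL17, RPL21, RPL36A, RPS10, RPS15, RPS26 and RPS27, and apart from RPS15 they had means below 50 CPM. Of 35 core genes with means above 200 CPM over all libraries, 35 fell in HMLE-TWIST1 (median -1.14) and 25 in HMLE (median -0.51). Of 15 genes below 50 CPM, 9 fell in HMLE-TWIST1 (median -0.53) and 2 in HMLE (median -0.06). Over the 76 core genes the log2 fold change in HMLE-TWIST1 had a Spearman correlation of -0.59 with log2 mean CPM and -0.313 with log2 gene length, as descriptions over genes of the same libraries. RPS10, at 1.9, 2.3 and 1.1 CPM in HMLE scramble and 2.4, 3.7 and 3.0 CPM in HMLE knockdown D4 libraries, was the member that rose in HMLE (log2 fold change 0.74, SE 0.25, adjusted p = 0.0348), and it had 10 to 56 reads per library. With precision weights in the fit 0 members rose in HMLE, and likewise when pseudogene rows were added to their genes.

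When reads of pseudogene rows were added to their genes, 71 members fell in HMLE-TWIST1 and 48 in HMLE. RPS3A, a small-subunit gene with 91.3% of its summed CPM in 11 pseudogene rows, then fell by 1.75 in HMLE-TWIST1 (limma adjusted p = 5.82e-12) and by 1.08 in HMLE (adjusted p = 9.4e-09). RPL4, with 52.2% in pseudogene rows, fell by 1.71 and by 1.00.

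**Figure D3:**
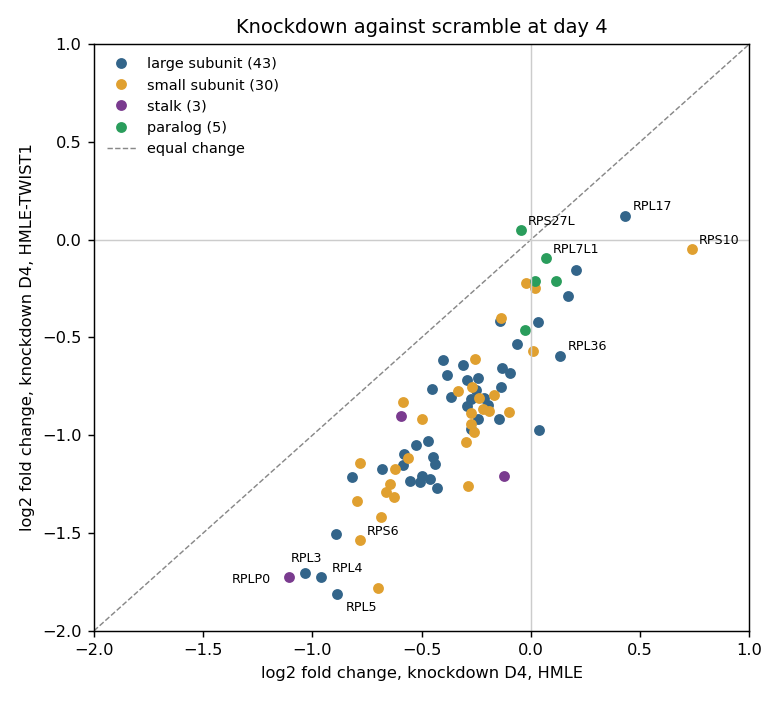
Log2 fold change of knockdown against scramble at D4 in HMLE (x axis) and HMLE-TWIST1 (y axis) for the core genes and the 5 paralogs tested, coloured by role, with the line of equal change dashed. Every core gene lies below the dashed line, and the paralogs lie nearer to 0 on the y axis than the median core gene at -0.91.

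The knockdown effect at D4 differed between the lines. The difference itself passed the test for 56 of 82 members, each with a lower value in HMLE-TWIST1, where 10.7% of all genes had a lower and 12% a higher value, and the median difference was -0.57. The log2 fold change was lower in HMLE-TWIST1 than in HMLE for 76 of 76 core genes, while it was higher for 50.2% of all genes. The median core gene stood at 147 CPM in HMLE and 218 CPM in HMLE-TWIST1 scramble D4. In knockdown D4 it stood at 107 and 109 CPM, so the lines lay apart in scramble and close together in knockdown. Over the 76 core genes the fold changes of the 2 lines, which share no library, had a Pearson correlation of 0.871 and a Spearman correlation of 0.813, as a description over genes. RPLP1 (difference -1.09, SE 0.30, limma adjusted p = 0.0306) and the large-subunit gene RPL12 (-1.01, SE 0.12, adjusted p = 1.14e-05) were among those that differed most. RPLP1 lost its call in 8 of the alternative fits.

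None of the 5 paralogs tested passed in either line at D4. Of all genes 18% fell and 19.9% rose in HMLE-TWIST1, and 13.6% fell and 12.5% rose in HMLE. With 5 genes the count cannot be told from those shares, and paralogs were not tested against core genes. Core genes below 50 CPM had medians of -0.53 in HMLE-TWIST1 and -0.06 in HMLE, against -1.14 and -0.51 above 200 CPM. RPL22L1, the paralog of the large-subunit protein RPL22, was at 47.4, 51.5 and 45.8 CPM in HMLE-TWIST1 scramble and 47.5, 39.5 and 38.4 CPM in knockdown libraries (log2 fold change -0.21, SE 0.10, limma adjusted p = 0.12), while RPL22 fell by 1.18 (adjusted p = 3.98e-07). RPS27L, a paralog known as a p53 target, was at 46.8, 46.5 and 37.6 CPM in scramble and 49.5, 44.9 and 40.7 CPM in knockdown libraries (log2 fold change 0.05, SE 0.17, adjusted p = 0.86). The groups overlapped for both paralogs. For RPL39L, at 8.91 ± 1.02 CPM in scramble and 6.41 ± 0.615 CPM in knockdown libraries (SD, n = 3), they did not overlap, and the change of -0.46 did not pass (adjusted p = 0.12). RPL26L1 and RPL7L1 changed by -0.21 and -0.09 in that line without passing, whereas RPL26 fell by 1.03 (adjusted p = 0.00488) and RPL7 by 1.23 (adjusted p = 1.1e-06). For RPS27 itself, with 29 to 115 reads per library, the change of -0.40 did not pass (adjusted p = 0.0929). RPL3L is not listed for the duplex libraries. Core genes with and without a pyrimidine run had medians close to each other: the median log2 fold change in HMLE-TWIST1 was -0.86 for the 46 core genes with a run, of which 42 fell, and -0.89 for the 16 without, of which 13 fell.

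At D2, 48 h into the knockdown, few members fell. In HMLE-TWIST1 13 of 82 members rose and 0 fell, where 7.72% of all genes rose and 7.6% fell, and the median was 0.15. The largest rises were those of RPS28 (log2 fold change 0.45), RPL29 (0.33) and RPS20 (0.33), of which RPS28 stands at 7.09 ± 0.503 CPM (SD, n = 3) in scramble libraries. In HMLE 6 members rose and 2 fell, where 12.6 and 16.5% of all genes did, and the median was 0.00. RPS24, RPL22L1 and RPL34 rose by 0.33, 0.31 and 0.28, and RPL3 and RPL8 fell by 0.21 and 0.20. The D2 difference between lines passed for 4 members, RPS28, RPL12, RPS16 and RPS19, each higher in HMLE-TWIST1, where 7.42% of all genes were higher and 4.73% lower. Each of these 4 calls was lost in 11 alternative fits, and the HMLE calls of RPL3, RPL34 and RPL22L1 in 6, 4 and 3. SUV39H1 was already lower at D2, by 1.31 in HMLE and 1.40 in HMLE-TWIST1 (limma adjusted p = 4.23e-05 and 3.73e-05).

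These D2 counts rest on few libraries. Without HMLE-TWIST1 knockdown D2 replicate 2, 23 members passed in HMLE-TWIST1, and without 1 of the other libraries of that comparison 4 to 8 passed. The D2 difference between lines passed for 10 members without the same library and for 0 or 1 without any of the other libraries but HMLE scramble D2 replicate 1 and HMLE knockdown D2 replicate 3. In HMLE 2 to 4 passed without HMLE scramble replicate 1 or 2 or HMLE knockdown replicate 1 or 2.

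A comparison added after the data were seen took the knockdown effect at D4 minus that at D2 within each line. It was lower at D4 for 67 of 82 members in HMLE-TWIST1 (median -1.09), where 9.08% of all genes were lower and 10.3% higher. In HMLE it was lower for 36 and higher for 1 (median -0.35), where 7.3 and 9.76% of all genes were. RPL5 had a difference of -1.92 (SE 0.08, limma adjusted p = 1.24e-15) in HMLE-TWIST1, and RPLP0 one of -1.06 (SE 0.10, adjusted p = 1.4e-08) in HMLE. RPS10 had the higher value in HMLE (1.08, SE 0.31, adjusted p = 0.0142).

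**Figure D4:**
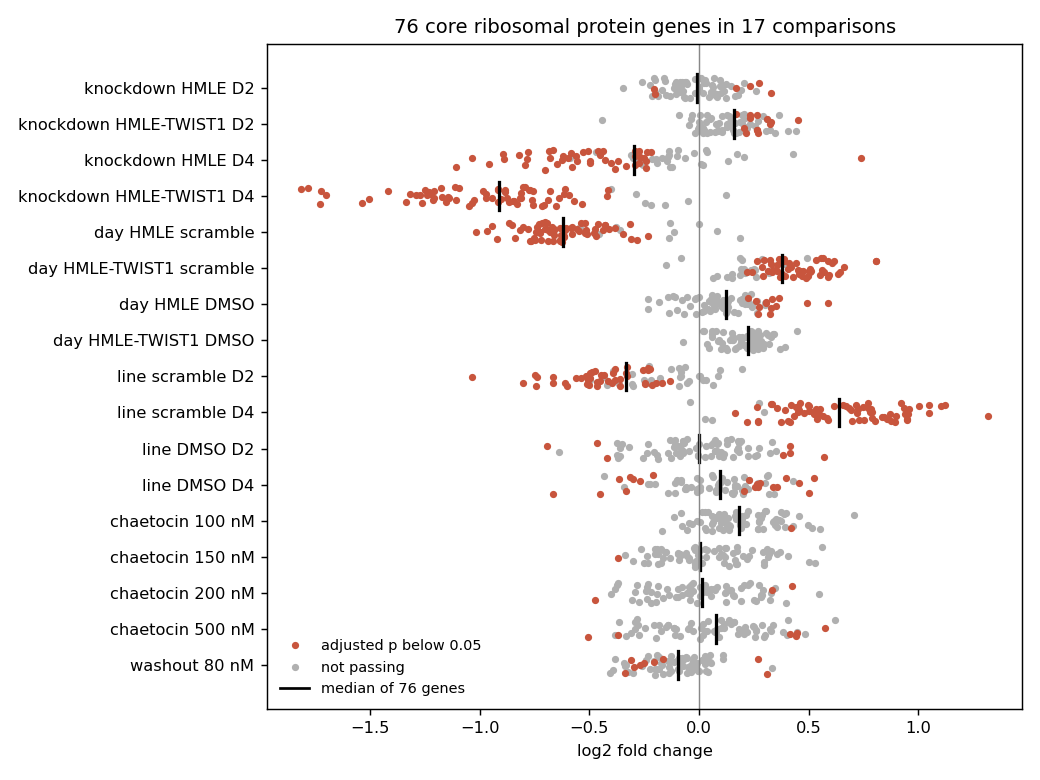
Log2 fold change of the 76 core genes (points) in 17 comparisons, red where the adjusted p is below 0.05, with the median as a bar, and vertical scatter for legibility only. Knockdown D4 and HMLE scramble D4 against D2 lie to the left with medians from -0.30 to -0.91, HMLE-TWIST1 scramble D4 against D2 to the right with 0.38, and the dose comparisons have points on both sides of 0.

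The scramble cells themselves moved between D2 and D4, in opposite directions in the 2 lines. In HMLE scramble cells 68 of 82 members were lower at D4 and 2 higher, where 20.4 and 21.8% of all genes were, with a median of -0.61. In HMLE-TWIST1 scramble cells 53 were higher at D4 and 0 lower, where 13.8 and 14.8% of all genes were, with a median of 0.37. The difference between the lines passed for 73 members in the direction of HMLE-TWIST1 and for 1 in the other, where 16.6 and 17.4% of all genes did, and its median was 0.95.

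RPSA was at 98.3, 109 and 104 CPM in HMLE scramble D2 libraries and at 56.8, 51.9 and 50.5 CPM at D4 (log2 fold change -0.97, SE 0.07, limma adjusted p = 6.19e-12), with no overlap. RPS2 and RPL14, proteins of the small and the large subunit, fell by 1.02 and 0.94. In HMLE-TWIST1 scramble cells RPL37 and RPL36 were among those that rose most, by 0.81 and 0.66, and RPL37 went from 251 ± 15.9 to 439 ± 2.62 CPM (SD, n = 3). RPLP0 fell by 0.80 in HMLE and rose by 0.22 in HMLE-TWIST1 (adjusted p = 3.64e-10 and 0.02). Among paralogs, RPS27L went the other way from the core genes in HMLE, from 20.5, 23.2 and 20.9 to 37.9, 29.1 and 47.5 CPM (log2 fold change 0.80, SE 0.14, adjusted p = 6.58e-05), and RPL22L1 rose there by 0.34 (adjusted p = 0.00712).

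In DMSO cells fewer members passed between the days, which here differ also in exposure. In HMLE DMSO cells 14 of 82 members were higher at D4 and 3 lower, where 19.3 and 15.9% of all genes were, with a median of 0.12. The 3 lower members were the paralogs RPL39L, RPL26L1 and RPL7L1, which fell by 0.97, 0.44 and 0.32, while RPS27, RPS27L and RPL15 rose most, by 0.59, 0.59 and 0.49. In HMLE-TWIST1 DMSO cells limma called 0 of 82 members, where 0.146% of all genes were higher and 0.197% lower. Differences were positive for 79 members, with a median of 0.22, and for 50.9% of all genes. The members share libraries, so this count is a description only. At an unadjusted p below 0.05 there were 29 members, and with precision weights in the fit 0 passed after adjustment. The line-by-day difference in DMSO passed only for RPL39L (1.07, SE 0.27, limma adjusted p = 0.00968), where 8.57% of all genes were higher and 10.6% lower. Scramble and DMSO libraries come from separately scaled parts of the table and their shifts were not compared by a test. With scaling to total reads, which moved the median of all genes to -0.12, 2 members were higher and 3 lower in HMLE DMSO cells at D4, and the line-by-day difference passed for 9. The shares of all genes above are those of the main scaling and do not apply to these counts. Leaving out 1 library moved the HMLE DMSO count to 27 (without D2 replicate 1 or D4 replicate 2) or 9 (without D2 replicate 2), the HMLE-TWIST1 count to 2 (without D4 replicate 2) and the count of the difference to 2 (without HMLE D2 replicate 1, HMLE-TWIST1 D2 replicate 2 or 3).

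Genes of cycling cells fell between the days in HMLE cells of both kinds. The summed level of 11 genes of cycling cells fell from between 1216 and 1263 CPM in HMLE scramble D2 to between 228 and 276 CPM at D4, and from between 3403 and 3720 CPM to between 635 and 977 CPM in HMLE DMSO cells, where 0 core genes fell. At D4 it was between 247 and 298 CPM in HMLE knockdown libraries. In HMLE-TWIST1 it was between 3764 and 4047 CPM in scramble D4 and between 2905 and 2960 CPM in knockdown D4 libraries. The part of cell cycle state in these results was not tested. The top gene's share was 5.71 to 11.6% of reads in HMLE scramble D4 and 6.86 to 9.32% in HMLE knockdown D4, and 3.60 to 3.87% and 2.41 to 3.79% in HMLE-TWIST1, so that the knockdown libraries overlapped their scramble libraries.

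Between the lines, the scramble groups differed in opposite directions at the 2 days. At D2, 46 of 82 members were lower in HMLE-TWIST1 than in HMLE and 4 higher, where 35.1 and 33.8% of all genes were, with a median of -0.32. At D4, 75 were higher and 0 lower, where 37.1 and 37.3% of all genes were, with a median of 0.60. With scaling to total reads, which shifted the median of all genes by 0.15 and 0.38, the counts were 29 lower and 6 higher at D2, and 81 higher and 0 lower at D4. For these counts no shares of all genes are given. RPS23, which lies at the decoding centre, was 569 ± 16.2 CPM in HMLE-TWIST1 and 229 ± 20.9 CPM in HMLE at D4 (SD, n = 3, log2 fold change 1.32, limma adjusted p = 1.89e-10).

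The lines were also compared in DMSO cells, which lie in another part of the table than the scramble cells. At D2, 7 of 83 members were higher in HMLE-TWIST1 and 3 lower, where 24.6 and 22.6% of all genes were, with a median of 0.03. At D4, 16 of 82 were higher and 8 lower, where 34.9 and 32.2% of all genes were, with a median of 0.11. Without HMLE DMSO D2 replicate 3 the D2 count was 6. At D4, scaling to total reads, which moved the median of all genes to 0.23, gave 39 higher and 2 lower, and the replicate block gave 35 and 11. Shares of all genes in these 2 fits are not given here. RPS3, a small-subunit protein at the mRNA entry site, was lower in HMLE-TWIST1 in DMSO at D2 (-0.69, SE 0.12, limma adjusted p = 0.000129) and D4 (-0.67, SE 0.07, adjusted p = 5.43e-07) and in scramble at D2 (-1.04, SE 0.04, adjusted p = 7.75e-14). RPL7A was lower in the same 3 comparisons, by 0.42, 0.36 and 0.80.

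Paralogs were among the members with the largest differences between the lines. RPS27L was at 60.8, 72.5 and 55.3 CPM in HMLE-TWIST1 DMSO D2 and at 27.3, 26.8 and 20.5 CPM in HMLE DMSO D2 libraries (log2 fold change 1.33, SE 0.23, limma adjusted p = 0.000129). It was also higher in DMSO at D4 (0.90, adjusted p = 3.93e-07) and in scramble at D2 (0.95, adjusted p = 2.38e-08), but did not pass in scramble at D4 (0.21, adjusted p = 0.26), where HMLE scramble cells had risen. RPL39L, the paralog of the small large-subunit protein RPL39 and known for high levels in testis, was at 7.4, 6.0 and 6.7 CPM in HMLE-TWIST1 and at 2.1, 3.0 and 2.2 CPM in HMLE DMSO D4 libraries (log2 fold change 1.41, SE 0.18, adjusted p = 5.56e-06). It was higher in scramble at D2 and D4 (1.23 and 1.37, adjusted p = 8.31e-06 and 2.52e-05) and did not pass in DMSO at D2 (0.34, adjusted p = 0.226). RPL26L1 was higher in all 4 comparisons, by 0.31, 0.73, 0.36 and 0.69, and so was RPL22L1, by 0.65, 0.51, 0.25 and 0.39 (DMSO D2, DMSO D4, scramble D2, scramble D4). The DMSO D2 call of RPL22L1 was lost in 6 alternative fits. The core partners RPL22, RPL26, RPL39 and RPS27 did not pass in DMSO at D2. In DMSO at D4 RPL22 was higher (0.28, limma adjusted p = 0.0152), and RPL26, RPL39 and RPS27 did not pass. In scramble at D4 71 of 76 core genes were higher (median 0.64), where 37.1% of all genes were. Higher levels there were thus not particular to paralogs. In scramble at D2 45 core genes were lower and 0 higher, where 35.1 and 33.8% of all genes were.

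Few members passed the test under chaetocin. The median SE of a member was 0.156 in this fit, against 0.0852 and 0.0895 in the D2 and D4 knockdown fits. Changes of a size called under knockdown could thus be missed here. At 100 nM 2 of 83 members rose and 0 fell, where 12.3 and 11% of all genes did. For 150 nM the counts were 1 and 1, against 18.4 and 15.4% of all genes. A dose of 200 nM gave 4 rises and 1 fall, against 21.7 and 17.7% of all genes. With 500 nM 8 rose and 3 fell, against 27.1 and 23.1% of all genes. The members' medians were 0.19, 0.00, 0.02 and 0.08. Differences were positive for 75, 43, 45 and 52 of the 83 members, and for 52.3, 52.9, 52.8 and 52.9% of all genes. The doses were compared with DMSO libraries of another part of the table, which has its own listed genes and scaling. The labels name no batch, and any difference between the parts cannot be told apart from treatment. They share their DMSO libraries and are set side by side only.

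RPL39L rose at each dose, from 7.32, 5.65 and 5.79 CPM in DMSO to 13.6, 10.04 and 8.96 CPM (100 nM) and 13.8, 12.1 and 13.6 CPM (500 nM). No treated library overlapped the DMSO libraries, and the log2 fold changes were 0.77, 0.68, 0.79 and 1.06 in order of dose (limma adjusted p = 0.0188, 0.0244, 0.00918 and 0.0008). RPL26L1 was at 24.2, 27.2 and 29.2 CPM in DMSO and at 44.7, 43.9 and 42.4 CPM at 500 nM (log2 fold change 0.70, SE 0.11, adjusted p = 8.94e-05), and RPS27L rose there by 0.63 (adjusted p = 0.032). RPL3L, the paralog of RPL3 known from muscle, had 0 to 23 reads in the libraries that list it and was at 1.1, 2.3 and 0.9 CPM at 500 nM (adjusted p = 0.0218). RPL7L1 fell by 0.26 at 500 nM (adjusted p = 0.0416).

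Of the core genes, RPL4 went from 1198, 1215 and 1164 CPM in DMSO to 1038, 784 and 724 CPM at 500 nM, without overlap (log2 fold change -0.51, SE 0.13, limma adjusted p = 0.00284), and fell at 150 and 200 nM by 0.37 and 0.47. RPL7A fell at 500 nM by 0.37 (adjusted p = 0.044). RPL39 and RPS7 rose at 200 nM by 0.42 and 0.33 and at 500 nM by 0.58 and 0.45, RPS25 and RPL38 rose at 500 nM by 0.44 and 0.41, and RPL23A rose at 100 nM by 0.42. Several of these calls were lost in alternative fits: RPL7L1 at 500 nM in 8, RPL7A at 500 nM and RPL4 at 150 nM in 7 each, RPL39 and RPS7 at 200 nM in 6 each, RPL39L at 150 nM in 5, RPS27L at 500 nM in 4, and RPL39L and RPL23A at 100 nM in 3 each. Between 500 and 100 nM, which lie in 1 part of the table, RPL26L1 was higher (0.47, SE 0.11, limma adjusted p = 0.0115) and RPL7A lower (-0.47, SE 0.15, adjusted p = 0.0352), 2 members where 9.28% of all genes were higher and 7.27% lower. Over the 83 members 71 differences were negative (median -0.12), while 51.2% of all genes had positive ones. Same-numbered libraries deviated together in this comparison, but the values above come from a fit without pairing. With the replicate block 4 members passed, 1 higher and 3 lower. That block was fitted with the HMLE and DMSO libraries included. Fitted to the dose libraries alone, the block gave a larger count, listed with the other fits at the end. The call of RPL7A here was lost in 5 alternative fits and that of RPL26L1 in 2.

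The dose counts depend on scaling and on libraries. With total reads in place of the trimmed mean scaling the median of all genes moved to 0.16, 0.21, 0.22 and 0.23, and 14, 13, 13 and 24 members were higher at the 4 doses and 0, 0, 0 and 1 lower. Shares of all genes called under that scaling are not given here, so these counts cannot be set against all genes. Without HMLE-TWIST1 100 nM replicate 2 the count at 100 nM was 11, without replicate 3 it was 4, and without replicate 1 it was 0. Without DMSO replicate 1 the counts were 1, 3 and 7 at 100, 200 and 500 nM, and without DMSO replicate 3 they were 0, 0, 3 and 6 at the 4 doses. At 150 nM the count was 0 without DMSO replicate 2 or 150 nM replicate 1 and 1 without 150 nM replicate 2. It was 9 at 200 nM without 200 nM replicate 3 and 6 at 500 nM without 500 nM replicate 2. Between 500 and 100 nM it was 0, 1, 4 or 6 without 1 library, with 6 without 100 nM replicate 2, 4 without 500 nM replicate 1, 1 without 100 nM replicate 1 or 500 nM replicate 3, and 0 without 100 nM replicate 3 or 500 nM replicate 2.

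After 80 nM and washout, 4 of 82 members were higher than in HMLE-TWIST1 DMSO D4 and 7 lower, and the median was -0.09. Among all genes 18.2% were higher and 18.2% lower. RPL26L1 was at 35.5, 32.4 and 35.3 CPM against 25.6, 28.7 and 24.9 CPM in DMSO (log2 fold change 0.38, SE 0.10, limma adjusted p = 0.00674), a rise inside 1 part of the table, and RPS7 and RPL9 rose by 0.31 and 0.27. RPL34, RPL10 and RPLP0 were among those that fell, by 0.34, 0.25 and 0.16. The calls of RPLP0, RPL9 and RPL10 were lost in 9, 8 and 5 alternative fits. With scaling to total reads 6 members were higher and 1 lower, and with the replicate block 4 and 23, counts without shares of all genes beside them. Without washout replicate 2 or 3 the count was 4 or 3, and without DMSO replicate 1 or 3 it was 5 or 4.

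Other TOP mRNA genes, a list of 19 that includes elongation factors, were lower beside the ribosomal protein genes in both knockdowns at D4. There, 19 of 19 fell in HMLE-TWIST1 (median -1.02) and 16 of 19 in HMLE (median -0.60), where 18 and 13.6% of all genes fell. EEF1A1, the factor that brings aminoacyl-tRNA to the ribosome, went from 1469, 1583 and 1554 CPM to 418, 409 and 393 CPM in HMLE-TWIST1 (log2 fold change -1.92, SE 0.07, limma adjusted p = 2.31e-12), and EEF2, the translocation factor, fell by 1.65. FAU fell by 0.74 in HMLE-TWIST1 and did not pass in HMLE (-0.18, adjusted p = 0.187). In the scramble cells, 17 of 19 fell between D2 and D4 in HMLE and 14 rose in HMLE-TWIST1, where 20.4% of all genes fell and 13.8% rose.

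Genes of ribosome assembly did not follow the core genes in each comparison. Of 53 assembly genes, 18 rose and 0 fell at D4 in the HMLE knockdown (median 0.23), where 12.5% of all genes rose and 13.6% fell. In the HMLE-TWIST1 knockdown 4 rose and 13 fell (median -0.19), where 19.9% of all genes rose and 18% fell, so the falls were near the background. At 500 nM chaetocin 44 rose and 0 fell (median 0.67), against 27.1 and 23.1% of all genes, and after washout 43 rose and 0 fell (median 0.46), against 18.2 and 18.2%. In HMLE DMSO cells 43 fell between D2 and D4 and 0 rose (median -0.51), where 15.9% of all genes fell and 19.3% rose. NCL, the nucleolar protein nucleolin, rose by 0.71 at 500 nM (limma adjusted p = 0.000105). Of 15 RNA polymerase I genes, 3 rose and 1 fell in the HMLE and 0 rose and 4 fell in the HMLE-TWIST1 knockdown at D4, counts near those shares of all genes but for the absence of rises in HMLE-TWIST1.

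Of the regulators, MYC went from 110, 109 and 110 CPM in HMLE scramble D4 to 217, 201 and 189 CPM in HMLE knockdown D4 libraries (log2 fold change 0.88, SE 0.07, limma adjusted p = 3.37e-08) and fell by 0.34 in HMLE-TWIST1 (adjusted p = 0.000797). EIF4EBP1, a translation repressor that mTORC1 phosphorylates, fell by 0.53 in HMLE and by 1.72 in HMLE-TWIST1 (adjusted p = 0.0397 and 5.27e-06). Of 25 genes of MYC and mTORC1 regulation, 4 rose and 7 fell at D4 in each line, where 12.5% of all genes rose and 13.6% fell in HMLE and 19.9% rose and 18% fell in HMLE-TWIST1.

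**Figure D5:**
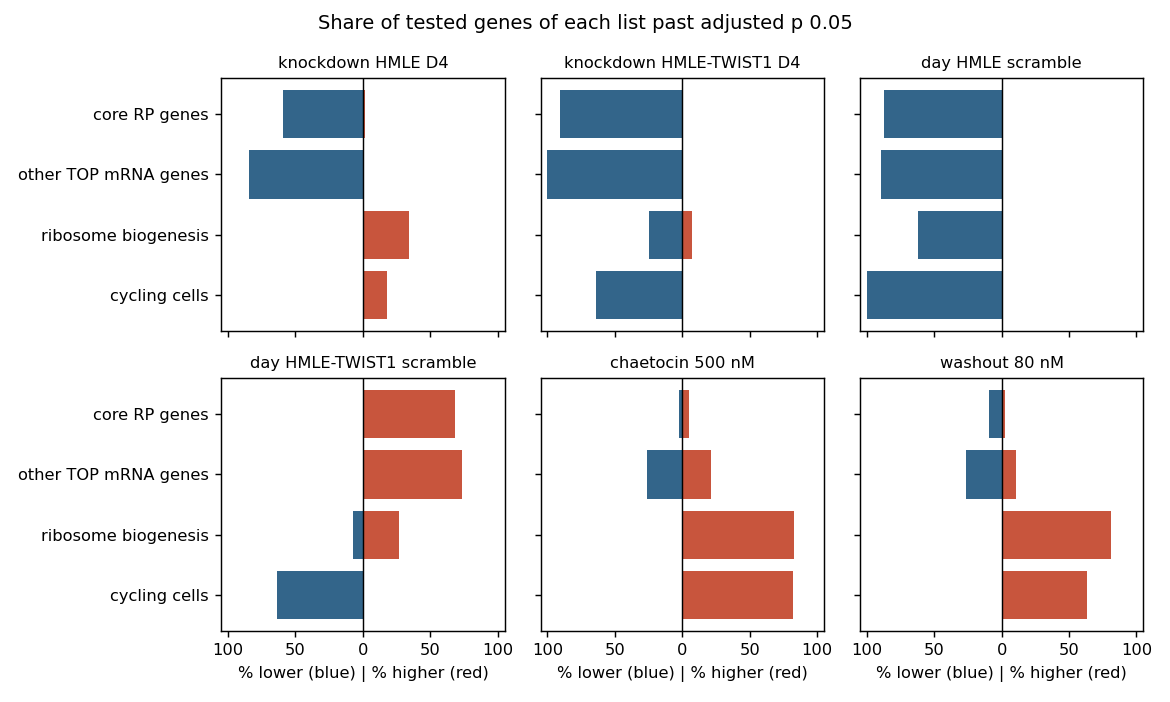
Percent of the tested genes of each list that were higher (red, to the right) or lower (blue, to the left) at adjusted p below 0.05, for core ribosomal protein (RP) genes (76), other TOP mRNA genes (19), ribosome biogenesis (53) and cycling cells (11) in 6 comparisons. The core and other TOP genes point the same way in the 4 duplex comparisons, and the biogenesis bars point up in both drug comparisons.

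Over the 8 duplex groups most core genes followed the same course. Group means of 55 of the 76 core genes had a Pearson correlation above 0.9 with the median core gene, a median that includes them, and the lowest was that of RPL36A at -0.138. How many other genes lay above 0.9 was not counted, so the 55 are a description over 8 group means. For the paralogs the correlation was 0.726 for RPL7L1, 0.457 for RPL26L1, 0.0546 for RPL39L, -0.194 for RPL22L1 and -0.428 for RPS27L. For RPL12L3, with 3 to 26 reads per library, it was 0.888. Of 5713 other genes with an average log2 CPM of at least 5, the 5 most alike were EEF1B2P3 (0.990), RPL13AP5 (0.989), EEF1B2 (0.988), RPS18P12 (0.987) and RPL6P27 (0.985), over 8 group means. Of these EEF1B2 encodes an elongation factor subunit, and the other 4 carry pseudogene symbols, whose reads cannot be told apart with certainty from those of the parent genes.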

How the data were processed

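The authors deposited log2 RPKM values by gene symbol for 51 libraries of stranded, ribosome-depleted total RNA. STAR, HTSeq and hg19 are named per the submitters' processing notes, without versions, and whether counting used strand is not given in the sources used here. A further deposited table has 81 unnamed columns and was not used. The log2 table joins 3 parts with their own scaling (15, 24 and 12 libraries). Whole reads were recovered for 100% of values (largest distance from a whole number 2.7e-08), since within a part each value is a constant per gene times reads plus an offset.

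The design foresaw a count test, but the file's unit is log2, so limma 3.58.1 (R 4.3.3, statmod 1.5.0; trend and robust moderation) was run on log2 CPM of the recovered reads, with a prior count of 2, trimmed mean scaling over all libraries, and genes of at least 10 reads in 3 libraries and 15 in all. Adjusted p is Benjamini-Hochberg over all genes tested, with a threshold of 0.05. Fits held 18 libraries (drug, D2), 9 (DMSO and washout, D4), 12 (duplexes, each day), 24 (duplexes, both days) and 12 (DMSO, both days). The procedure was tested on simulated data. Libraries of a group were not identical (0 identical pairs, correlations 0.968 to 0.993).

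No main fit took replicate numbers as pairs. Only for 500 against 100 nM did all 3 same-numbered pairs correlate in their deviations above 0.1 (0.459, 0.246 and 0.182). There the replicate block is given beside the unpaired fit. Named genes are RPLP0, RPLP1, RPLP2, RPSA, RPS6, RPL5, RPL11, the paralogs with their partners, up to 3 largest rises and falls per comparison (average log2 CPM of at least 2, no overlap between groups) with up to 3 against the median, all where 5 or fewer pass, the 3 highest and lowest core genes by RPKM, and the 5 genes most alike. RPS3A, RPS25, RPL38 and the core genes that did not pass at D4 were named after their values were seen. Members, lists and tests were chosen with earlier results of these data known. Alternatives were other scalings, prior count, no filter, length correction, the replicate block, the deposited values and leaving out each library, and, chosen after seeing the data, precision weights, scaling within each fit, pseudogene rows added and the dose libraries alone. Some genes are counted in the totals but not reported here by name.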

Additional observations from a re-analysis of the deposited data

Results flagged for a closer look

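Differences between effects of the same contrast were tested directly, with limma and an adjusted p below 0.05. The knockdown effect differed between the lines for 4 of 82 members at D2, where 7.42% of all genes were higher and 4.73% lower in HMLE-TWIST1, and for 56 at D4, where 12% were higher and 10.7% lower. The change of scramble cells from D2 to D4 differed between the lines for 74 members (16.6 and 17.4% of all genes higher and lower), and that of DMSO cells for 1, RPL39L (8.57 and 10.6%). The counts at D2 and in DMSO are thus below the shares of all genes. The knockdown effect differed between the days for 37 members in HMLE (9.76 and 7.3% of all genes higher and lower) and for 67 in HMLE-TWIST1 (10.3 and 9.08%). Their causes were not tested.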

How the results depend on the processing

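The counts of members called at D4 under knockdown, and those of scramble cells between days and lines, stayed within 1.5 times their value in every fit run. Shares of all genes are given for the main fits only. Counts from other fits thus show how the number of calls moved, not how members stood against all genes. Scaling to total reads gave 14, 13, 13 and 25 members at 100, 150, 200 and 500 nM, 41 for the lines in DMSO at D4, 7 after washout, 0 for the D2 knockdown between lines, 5 for HMLE DMSO by day and 9 for its difference between lines. Median of ratios scaling gave 5 at 100 nM and 4 at 150 nM. The replicate block gave 13, 8, 8 and 21 at the 4 doses, 4 for 500 against 100 nM, 46 for the lines in DMSO at D4, 27 after washout and 2 for the DMSO difference between lines; outside 500 against 100 nM the lowest correlation of same-numbered libraries was at most 0.0846, so numbers were not taken as pairs. A gene length correction gave 1 at 150 nM and 2 for the DMSO difference. The deposited log2 RPKM gave 5 after washout, 5 for the D2 knockdown in HMLE-TWIST1, 1 for its difference between lines and 3 for the DMSO difference, and could not be run across parts of the table. The dose libraries alone gave 1 for 500 against 100 nM, or 14 with the replicate block. The causes were not tested. The planned quasi-likelihood count test was not run.

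Leaving out 1 library gave 6 to 8 for the lines in DMSO at D2, 0 to 11, 0 to 3, 3 to 9 and 6 to 12 at the 4 doses, 0 to 6 for 500 against 100 nM, 3 to 15 after washout, 2 to 8 and 4 to 23 for the D2 knockdown in HMLE and HMLE-TWIST1, 0 to 10 for its difference, 9 to 27 for HMLE DMSO by day, 0 to 2 for HMLE-TWIST1 DMSO by day and 1 to 2 for their difference. Of the values of named genes under other fits, 175 lost their call, 1392 kept their side of the threshold and 0 reversed. Members with few reads (RPL17, RPS10, RPL3L) are limited by depth.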
